A study of Rattus norvegicus with 28 samples.

Results

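Alveolar type 1 cell genes were followed in rat lung across uninjured, acutely injured and chronically injured animals that were ventilated or not. The set held 10 genes, chosen by symbol from general knowledge of these cells: Aqp5, Ager, Pdpn, Gprc5a, Hopx, Clic5, Cav1, Akap5, Lmo7 and Rtkn2. Earlier results of these data were known when they were chosen. All 10 were found among the 17002 genes of the table, and all 10 had a mean value of at least 10 and so were tested, as were 14908 genes in all.

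The 28 RNA-seq libraries were made from poly(A) RNA of 1 lobe, the right upper one, of lungs from Sprague Dawley rats, and each library is named here as its label names it. Lungs without ventilation were uninjured (control_blank, n = 3) or were taken 14 days after chronic injury was induced (control_chronic, n = 5). Ventilation kept the tidal volume constant (VCV, volume-controlled ventilation) or let it vary between breaths (noisy, or variable, ventilation). It was given to uninjured animals (healthy_VCV, n = 4, and healthy_noisy, n = 3), to animals with acute lung injury (acute_VCV, n = 3, and acute_noisy, n = 4) and to animals with chronic injury (chronic_VCV, n = 3, and chronic_noisy, n = 3). No group had acute injury without ventilation, so acute injury can be compared only with ventilated uninjured lungs, or together with ventilation against control_blank. The agent that injured the lung, the age of the animals and the length of ventilation are not given in the sources used here.

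Alveolar type 1 cells are the very thin, flat cells that form most of the air side of the gas exchange surface, and they arise from the surfactant-making alveolar type 2 cells after damage. Their products include membrane proteins of the air-facing and basal surfaces and a set of scaffold, junction and cytoskeleton proteins that hold the flattened shape. Several of these genes are also used elsewhere in the lung, Cav1 and Clic5 in endothelium and Pdpn in lymphatic endothelium and mesothelium. In whole tissue, fewer cells of a type and less RNA per cell cannot be told apart.

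Whole reads recovered from the deposited values numbered 6024093 to 31923838 per library. The titles carry a number series that starts with 12, 14, 15 or 18, and the labels do not say what it stands for. All control_blank and acute_VCV libraries were of series 12, all control_chronic libraries of series 18, all healthy_noisy and chronic_VCV libraries of series 15 and all chronic_noisy libraries of series 14, while healthy_VCV (3 of series 14, 1 of series 15) and acute_noisy (2 and 2) held both. Series and group cannot be told apart in most comparisons, and acute_VCV against control_blank is the comparison in which every library was of a single series. Values are reads divided by 1 size factor per library, and they are compared within a gene and not between genes, since they are not per length. The labels do not state that each library came from a separate animal, so p-values measure the spread between these libraries. Markers of heart muscle, summed over the list, ran 9586 to 17348 in control_blank and 919 to 1259 in control_chronic. They ran 1827 to 9415 in healthy_VCV, 430 to 1415 in healthy_noisy, 6388 to 15543.5 in acute_VCV and 305 to 8739 in acute_noisy. With chronic injury they ran 302 to 696 in chronic_VCV and 2106 to 8044 in chronic_noisy. The part of these differences in the results was not tested. The 10 members were detected in every library, the lowest count being 605 reads (Rtkn2).

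**Figure D1:**
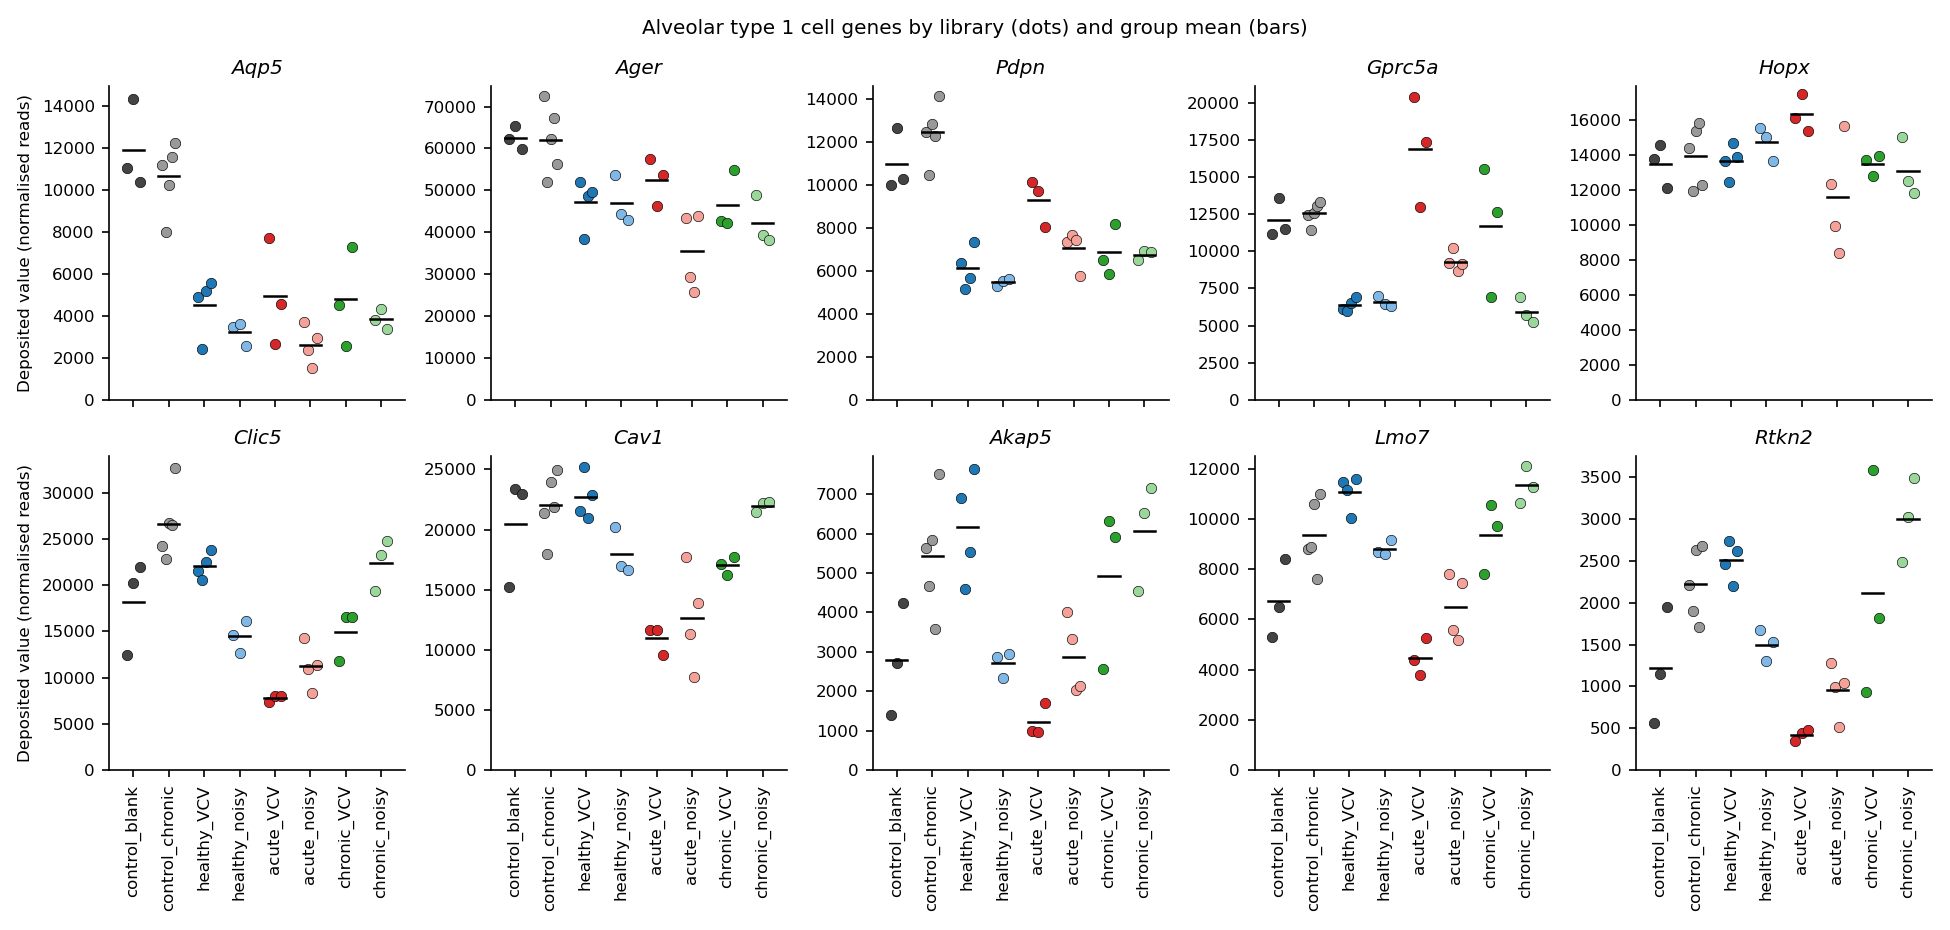
Deposited value (normalised reads, linear axes from 0) of each of the 10 genes in the 28 libraries, with a dot per library and a bar at the group mean. Aqp5 is lower in each of the 20 ventilated libraries than in each of the 8 unventilated ones, and Clic5, Cav1, Akap5, Lmo7 and Rtkn2 have their lowest group mean in acute_VCV.

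Aqp5 encodes the water channel of the air-facing membrane, and it separated ventilated from unventilated lungs in every library. Its values were 11042, 14320 and 10405 in control_blank and 11201, 8020, 10224, 11584 and 12235 in control_chronic. They were 4910, 2441, 5188 and 5590 in healthy_VCV, 3457, 3622 and 2578 in healthy_noisy, 7698, 2666 and 4553 in acute_VCV and 3703, 2377, 1529 and 2937 in acute_noisy. With chronic injury they were 4540, 2560 and 7293 in chronic_VCV and 3803, 4359 and 3378 in chronic_noisy. The highest ventilated library, acute_VCV_040, lay below the lowest unventilated one, control_chronic_114. Over all genes tested, 1.97% had every ventilated library below every unventilated one, and Aqp5 was the only one of the 10 in that set. Ciliated cell markers, summed over their list, separated the same libraries, at 28407 to 53414 without ventilation and 11408 to 23208 with it. Secretory cell sums overlapped, at 389521 to 649907 in control_chronic and 237166 to 404272 in healthy_noisy. The part of airway cells in the Aqp5 result was not tested. Ordered by group mean, the ventilated groups ran from acute_VCV (4972 ± 2542 SD) down to acute_noisy (2637 ± 917 SD), and the ranges of neighbours in that order overlapped.

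The 250 bases before the RefSeq start of Aqp5 are shown because no ventilated library of this gene reached an unventilated one, and they lie on the plus strand at chr7:132601278-132601527 (build GRCr8). Capitals mark the letters GGGCGG, the core of the Sp1 site, on either strand.
Aqp5: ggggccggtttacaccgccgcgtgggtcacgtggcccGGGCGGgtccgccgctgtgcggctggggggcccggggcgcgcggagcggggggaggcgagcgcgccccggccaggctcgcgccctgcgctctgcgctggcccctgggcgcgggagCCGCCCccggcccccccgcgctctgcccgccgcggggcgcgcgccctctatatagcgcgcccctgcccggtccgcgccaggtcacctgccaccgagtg
The window was 83.2% G or C against a median of 51.2% over all 33469 windows of this length, and it held 2 matches to GGGCGG, which 30.47% of all windows hold. Of the 9 genes with a window (Gprc5a had none in the table), 7 held GGGCGG in at least 1 window. The letters GGAATG (TEAD), TGANTCA (AP-1) and GCGTGGGCG (EGR1), searched on both strands, were found in 0 of the 9, and 12.06%, 6.34% and 0.4781% of all windows hold them. TATAAA was found in 1 of 2 Cav1 windows and in 12.93% of all windows, and matches to different motifs could overlap. A match describes letters and is not a measured site.

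Against the unventilated lungs of the same injury state, Aqp5 fell in every ventilated group with such a control. In uninjured lungs the change was 2.73-fold lower under constant ventilation (log2 difference -1.45 ± 0.34 SE, adjusted p = 0.00102) and 3.71-fold lower under variable ventilation (log2 difference -1.89 ± 0.37 SE, adjusted p = 0.000687). In chronically injured lungs it was 2.4-fold lower under constant ventilation (log2 difference -1.26 ± 0.33 SE, adjusted p = 0.0119) and 2.76-fold lower under variable ventilation (log2 difference -1.46 ± 0.33 SE, adjusted p = 0.00194). The constant ventilation call was lost without chronic_VCV_069, the lowest of its 3 libraries (adjusted p = 0.117). Against control_blank, acutely injured ventilated lungs were 2.6-fold lower under constant ventilation (log2 difference -1.38 ± 0.37 SE, adjusted p = 0.00499) and 4.71-fold lower under variable ventilation (log2 difference -2.23 ± 0.34 SE, adjusted p = 1.3e-05). The first of these, within a single number series, missed the threshold narrowly without acute_VCV_045 (adjusted p = 0.0522). In the other comparisons with unventilated lungs no number series held both groups, so group and series cannot be told apart there. Among ventilated lungs Aqp5 passed the threshold in none of the comparisons of injury or of mode by limma. The interval was -0.64 to 0.78 log2 units for acute injury under constant ventilation. For mode in acute injury the log2 difference of Aqp5 was -0.86, the lowest of the 10 members. That difference passed by limma in 2 of 7 fits with a library left out (adjusted p as low as 0.0256).

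Pdpn encodes podoplanin, a mucin-like glycoprotein of the air-facing membrane that binds ezrin and moesin. Values were 10002, 12648 and 10286 in control_blank, 12472, 10468, 12826, 12277 and 14142 in control_chronic, 6349, 5173, 5658 and 7331 in healthy_VCV and 5291, 5532 and 5603 in healthy_noisy. In chronically injured ventilated lungs they were 6524, 5866 and 8201 (chronic_VCV) and 6494, 6919 and 6866 (chronic_noisy). Every library of these 4 ventilated groups lay below every unventilated library. Against the unventilated group of the same injury state alone, 30% of all genes lay wholly below in healthy_VCV and 20.2% in healthy_noisy. The shares were 12.2% in chronic_VCV and 22.1% in chronic_noisy. Pdpn fell 1.8-fold (log2 difference -0.85 ± 0.14 SE, adjusted p = 2.47e-05) and 1.99-fold (95% interval of the log2 difference -1.30 to -0.69, adjusted p = 6.98e-05) in uninjured lungs under constant and variable ventilation. It fell 1.82-fold (log2 difference -0.87 ± 0.13 SE, adjusted p = 0.000251) and 1.83-fold (log2 difference -0.87 ± 0.13 SE, adjusted p = 8.13e-05) in chronically injured lungs. These 4 calls held under every alternative run. No number series held both groups in any of these comparisons, so series could not be among the alternatives. The acute_VCV libraries stood higher, at 10138, 9728 and 8019, and their ranges overlapped those of control_blank (log2 difference -0.24 ± 0.15 SE, adjusted p = 0.205). The acute_noisy libraries were at 7326, 7655, 7424 and 5782, all below control_blank (log2 difference -0.64 ± 0.14 SE, adjusted p = 0.000401), as in 22.6% of all genes.

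Ager encodes RAGE, a receptor for S100 proteins and other ligands on the basal membrane, and it moved in the same direction as Aqp5 by less. Without ventilation the libraries lay at 59869 to 65422 (control_blank) and 52004 to 72570 (control_chronic). With ventilation they lay at 38424 to 52102 (healthy_VCV), 42857 to 53737 (healthy_noisy), 46392 to 57527 (acute_VCV), 42154 to 54949 (chronic_VCV) and 38142 to 49023 (chronic_noisy). Its largest fall was in acute_noisy, 1.8-fold below control_blank (log2 difference -0.85 ± 0.17 SE, adjusted p = 0.000258), where the 4 libraries were 43421, 29332, 25875 and 43889. The first and the last of these are of series 15, the others of series 14, and their means were 43655 and 27603. Ager also passed the threshold for constant ventilation of uninjured lungs (log2 difference -0.41 ± 0.17 SE, adjusted p = 0.0455) and for variable ventilation of chronically injured lungs (log2 difference -0.56 ± 0.17 SE, adjusted p = 0.0123). The former was lost without any of the libraries control_blank_016, control_blank_021, control_blank_074, healthy_VCV_057, healthy_VCV_060 and healthy_VCV_062 (adjusted p up to 0.144). The latter was lost without chronic_noisy_079 or chronic_noisy_084 (adjusted p = 0.0513 and 0.0744), and quantile normalization brought its log2 difference to -0.16. No number series held both groups in any comparison in which Ager is called here.

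Of the ligands of Ager, S100a8 and S100a9, both abundant in neutrophils, rose by 2.97 and 2.76 log2 units in healthy_VCV and by 4.62 and 4.41 in acute_VCV, each against control_blank. S100a6 fell in healthy_VCV and healthy_noisy (-0.81 and -1.13), as did S100a4 in healthy_noisy (-0.75), and S100b did not pass the threshold in these comparisons. S100a11 was also measured, and its differences are not given here, nor are those of S100a4 and S100a6 in acute_VCV. Of the Pdpn partners, Ezr (ezrin) fell in healthy_VCV and healthy_noisy (-0.73 and -0.48) and rose in acute_VCV (0.50), while Cd9 fell in both uninjured ventilated groups (-0.63 and -0.52). Msn (moesin) rose in healthy_VCV (1.19) and acute_VCV (1.08). Cd44 rose in acute_VCV (0.67), and Clec1b passed in none of these 3. Of the other aquaporins, Aqp1, the water channel of endothelium, was at -0.19, -0.38 and -0.21 in healthy_VCV, healthy_noisy and acute_VCV and did not pass. Aqp4 fell in acute_VCV (-1.71), where Aqp3, a glycerol and water channel, rose (3.89). Aqp9 rose in all 3 (1.45 in healthy_VCV and 2.18 in acute_VCV), and Aqp8 in both uninjured ventilated groups (2.57 and 2.71). Aqp8, Aqp3 and Aqp9 were low genes, with mean values of 17.1, 49.9 and 81.9 over the 28 libraries.

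Gprc5a, a retinoic acid-induced orphan receptor of the cell surface, fell past the threshold in 3 ventilated groups and stood highest in acute_VCV. Values were 11162, 13612 and 11495 in control_blank, 12424, 11412, 12596, 13044 and 13287 in control_chronic, 6115, 5997, 6510 and 6916 in healthy_VCV and 6970, 6441 and 6347 in healthy_noisy. With acute injury they were 20356, 13003 and 17353 in acute_VCV and 9224, 10192, 8691 and 9134 in acute_noisy. With chronic injury they were 15546, 6946 and 12656 in chronic_VCV and 6899, 5732 and 5219 in chronic_noisy. The healthy_VCV, healthy_noisy, acute_noisy and chronic_noisy libraries all lay below the unventilated ones, whereas the chronic_VCV libraries lay on both sides of them. Against the unventilated group of the same injury state alone, 30% of all genes lay wholly below in healthy_VCV, 20.2% in healthy_noisy and 22.1% in chronic_noisy. In acute_noisy 22.6% of all genes lay wholly below control_blank. Gprc5a did not pass the threshold in that comparison. Its log2 difference there ran from -0.44 to -0.29 over 12 alternatives, of which 1 passed. Gprc5a fell 1.89-fold in healthy_VCV (log2 difference -0.92 ± 0.18 SE, adjusted p = 0.000181), 1.83-fold in healthy_noisy (log2 difference -0.87 ± 0.19 SE, adjusted p = 0.00194) and 2.12-fold in chronic_noisy (log2 difference -1.08 ± 0.17 SE, adjusted p = 0.000144), calls that held under every alternative run. Number series could not be among the alternatives, since no series held both groups in any of these comparisons. In acute_VCV it was 2.61-fold higher than in healthy_VCV (log2 difference 1.38 ± 0.18 SE, adjusted p = 1.66e-06), and against control_blank it did not pass the threshold (log2 difference 0.46 ± 0.19 SE, adjusted p = 0.0606).

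Clic5, a chloride intracellular channel family protein linked to ezrin and actin, was lowest in acute_VCV in every library. Values were 12401, 20273 and 21972 in control_blank, 24285, 22856, 26688, 26464 and 32708 in control_chronic, 21534, 20571, 22567 and 23828 in healthy_VCV and 14598, 12621 and 16181 in healthy_noisy. They were 7374, 7996 and 8041 in acute_VCV and 14251, 10973, 8375 and 11397 in acute_noisy. They were 11830, 16541 and 16518 in chronic_VCV and 19330, 23252 and 24743 in chronic_noisy. All 3 acute_VCV libraries lay below each of the other 25. Against control_blank the fall was 2.27-fold (log2 difference -1.18 ± 0.19 SE, adjusted p = 7.61e-05), and against healthy_VCV it was 2.83-fold (log2 difference -1.50 ± 0.18 SE, adjusted p = 6.5e-07). Both calls held under every alternative run, but no number series held both acute_VCV and healthy_VCV. Of all genes, 20.7% had every acute_VCV library below control_blank and 30% below healthy_VCV. Constant ventilation of chronically injured lungs also lowered Clic5 1.79-fold (log2 difference -0.84 ± 0.17 SE, adjusted p = 0.0029), a call that held likewise, again with no series in both groups. In uninjured lungs the Clic5 difference under constant ventilation did not pass the threshold (log2 difference 0.32 ± 0.18 SE, adjusted p = 0.134).

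Rtkn2, used as a marker of type 1 cells, had the widest range of the 10, its highest value being 10.5 times its lowest. Values were 563, 1143 and 1950 in control_blank, 2212, 1905, 2630, 1714 and 2672 in control_chronic, 2466, 2736, 2198 and 2616 in healthy_VCV and 1674, 1298 and 1528 in healthy_noisy. They were 343, 444 and 478 in acute_VCV and 1279, 989, 510 and 1037 in acute_noisy. They were 929, 3589 and 1816 in chronic_VCV and 2483, 3022 and 3490 in chronic_noisy. Each acute_VCV library was below the lowest of the other groups, and the 2 groups with the highest means, chronic_noisy and healthy_VCV, overlapped. The chronic_VCV libraries spanned nearly the whole range, with chronic_VCV_067 low and chronic_VCV_069 the highest of all.

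Akap5, a scaffold that anchors protein kinase A and calcineurin, ran 970 to 1713 in acute_VCV, 1404 to 4229 in control_blank, 2349 to 2945 in healthy_noisy and 2041 to 4021 in acute_noisy. It ran 2566 to 6322 in chronic_VCV, 3570 to 7509 in control_chronic, 4545 to 7155 in chronic_noisy and 4586 to 7635 in healthy_VCV. Lmo7, a LIM domain protein of cell junctions, ran 3785 to 5257 in acute_VCV, 5174 to 7813 in acute_noisy, 5308 to 8390 in control_blank and 7611 to 10985 in control_chronic. For both genes acute_VCV had the lowest mean, and healthy_VCV and chronic_noisy were the highest pair. Lmo7 in healthy_noisy (8610 to 9140), chronic_VCV (7785 to 10537), healthy_VCV (10023 to 11599) and chronic_noisy (10632 to 12084) lay in the upper part of its range. Cav1, the coat protein of caveolae, ran 9558 to 11664 in acute_VCV and 7704 to 17747 in acute_noisy. In the other 6 groups Cav1 ran between 15203 and 25234, the lowest being control_blank_016 and the highest healthy_VCV_057.

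The windows before the RefSeq starts of Clic5 (minus strand, chr9:24310965-24311214, GRCr8) and Rtkn2 (minus strand, chr20:20608863-20609112, GRCr8) are shown because these genes gave the clearest low values in acute_VCV. Each is printed from its distal end to the base before the start on the gene's own strand, and capitals again mark GGGCGG on either strand.
Clic5: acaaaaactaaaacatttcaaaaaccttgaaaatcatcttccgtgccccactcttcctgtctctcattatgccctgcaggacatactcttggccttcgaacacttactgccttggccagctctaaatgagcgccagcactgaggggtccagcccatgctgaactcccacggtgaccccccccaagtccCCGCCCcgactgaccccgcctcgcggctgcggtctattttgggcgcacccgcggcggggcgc
Rtkn2: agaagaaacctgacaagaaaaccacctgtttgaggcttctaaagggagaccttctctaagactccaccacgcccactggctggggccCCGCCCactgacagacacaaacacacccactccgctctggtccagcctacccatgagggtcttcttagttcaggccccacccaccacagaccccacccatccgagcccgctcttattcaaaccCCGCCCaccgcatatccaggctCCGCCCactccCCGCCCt
The Clic5 window held 1 match and was 58.4% G or C, and the Rtkn2 window held 4 matches and was 60% G or C.

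Hopx encodes a small homeodomain protein that does not bind DNA, and it varied least, its highest value being 2.08 times its lowest. Values were 16115, 17466 and 15371 in acute_VCV, the group with the highest mean, and 12305, 9945, 8383 and 15621 in acute_noisy, the group with the lowest. The other 6 groups lay between 11791 and 15820. In the 7 comparisons with an unventilated group Hopx passed the threshold in 0 by limma, by edgeR or at an unadjusted p under 0.05.

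Acute injury under constant ventilation went with lower values of some members and higher values of others. Against healthy_VCV, 5 fell and 2 rose in acute_VCV, where 26.4% and 26.1% of all genes tested did so (52.5% in either direction). All acute_VCV libraries are of series 12 and no healthy_VCV library is, so injury and series cannot be told apart here. Those that fell were Rtkn2 (5.97-fold, log2 difference -2.58 ± 0.36 SE, adjusted p = 3.79e-06), Akap5 (5.1-fold, log2 difference -2.35 ± 0.34 SE, adjusted p = 6.68e-06), Clic5, Lmo7 (2.49-fold, log2 difference -1.32 ± 0.16 SE, adjusted p = 9.22e-07) and Cav1 (2.07-fold, log2 difference -1.05 ± 0.19 SE, adjusted p = 8.32e-05). In each of these 5 every acute_VCV library lay below every healthy_VCV library, as in 30% of all genes tested. The calls held under every alternative run. Gprc5a rose as given above, and Pdpn rose 1.52-fold (log2 difference 0.61 ± 0.14 SE, adjusted p = 0.000764). Quantile normalization took the Pdpn difference to 0.34 with an adjusted p of 0.051. Aqp5 (0.07 ± 0.34), Ager (0.16 ± 0.17) and Hopx (0.26 ± 0.15) did not pass the threshold. With 7 of 10 members past the threshold against 52.5% of all genes, the count alone does not set the members apart.

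Within number series 12, acute_VCV against control_blank gave the same direction for the 5 genes that fell. Of the 10, 6 fell and 0 rose, where 16.7% of all genes tested fell and 20.6% rose (37.3% either way). Beside Aqp5 and Clic5 these were Rtkn2 (log2 difference -1.37 ± 0.38 SE, adjusted p = 0.00749), Akap5 (log2 difference -1.09 ± 0.37 SE, adjusted p = 0.0225), Cav1 (log2 difference -0.88 ± 0.20 SE, adjusted p = 0.00167) and Lmo7 (log2 difference -0.58 ± 0.18 SE, adjusted p = 0.0127). The control_blank libraries differed among themselves, control_blank_016 being lowest and control_blank_074 highest in Akap5, Lmo7 and Rtkn2. Without control_blank_074 the adjusted p rose to 0.061 for Rtkn2, 0.139 for Akap5 and 0.0853 for Lmo7, and the Akap5 difference fell to -0.72, so 3 of the 6 were left. Without acute_VCV_045 the adjusted p was 0.0901 for Akap5 and 0.0773 for Lmo7. Akap5 was also lost without acute_VCV_040 (0.0663) or control_blank_021 (0.0621). Clic5 and Cav1 held under every alternative run. In the same comparison transitional epithelium markers rose for 10 of 10 and neutrophil markers for 11 of 11, endothelial markers rose for 4 and fell for 3 of 14, and the part of these cells was not tested.

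Markers of some other cell types moved in acute_VCV against healthy_VCV, and their part in it was not tested. Of 10 tested markers of transitional epithelium, the keratin-rich state between type 2 and type 1 cells, 9 rose and 0 fell in acute_VCV against healthy_VCV, led by Krt17 (9.67), Cldn4 (3.77) and Areg (3.28). Their summed level ran 14112 to 18032 in healthy_VCV and 51946 to 66979 in acute_VCV, and Krt17 alone ran 2.82 to 21.5 and 7180 to 9031. Of 10 type 2 markers, 3 rose and 3 fell, Scd being the lowest (-3.40), and the sum ran 420789 to 569623 in healthy_VCV and 551311 to 658733 in acute_VCV. Of 14 endothelial markers, 2 rose and 6 fell, with sums of 76645 to 86023 and 60229 to 75538. Of 11 neutrophil markers, 3 rose and 0 fell. Of all genes tested 26.1% rose and 26.4% fell, so the type 2 counts and the neutrophil rises were near those shares. The median log2 difference was 1.82 for transitional epithelium, 0.38 for type 2, -0.40 for endothelium and -0.49 for the 10 members, against -0.01 over all genes.

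Other genes of type 1 cells, listed apart from the 10, went mostly with the set that fell. Of 24 listed, 20 were found and tested. In acute_VCV against healthy_VCV 13 of these fell and 2 rose, with a median of -0.67, where 26.4% and 26.1% of all genes did so. The largest falls were in the basement membrane collagens Col4a3 (-2.16) and Col4a4 (-2.02) and in the proteoglycan Spock2 (-1.79), and the genes that rose were the keratin Krt7 (1.32) and Fstl3 (1.26). Against control_blank, within series 12, 11 fell and 4 rose (16.7% and 20.6% of all genes), but Col4a3 (-0.14), Col4a4 (-0.19) and Spock2 (-0.40) did not pass. Among partners of Cav1 in caveolae, Sdpr fell against healthy_VCV (-1.94) and against control_blank (-1.77), as did Cav2 (-1.78 and -1.25). Prkcdbp rose against healthy_VCV (0.64), as did the muscle form Cav3 (1.43), while Ptrf (-0.76) and Ehd2 (-0.54) fell and Pacsin2 (0.22) did not pass. Of the other Clic genes, Clic1 rose (1.28) while Clic2, Clic3, Clic4 and Clic6 did not pass.

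**Figure D2:**
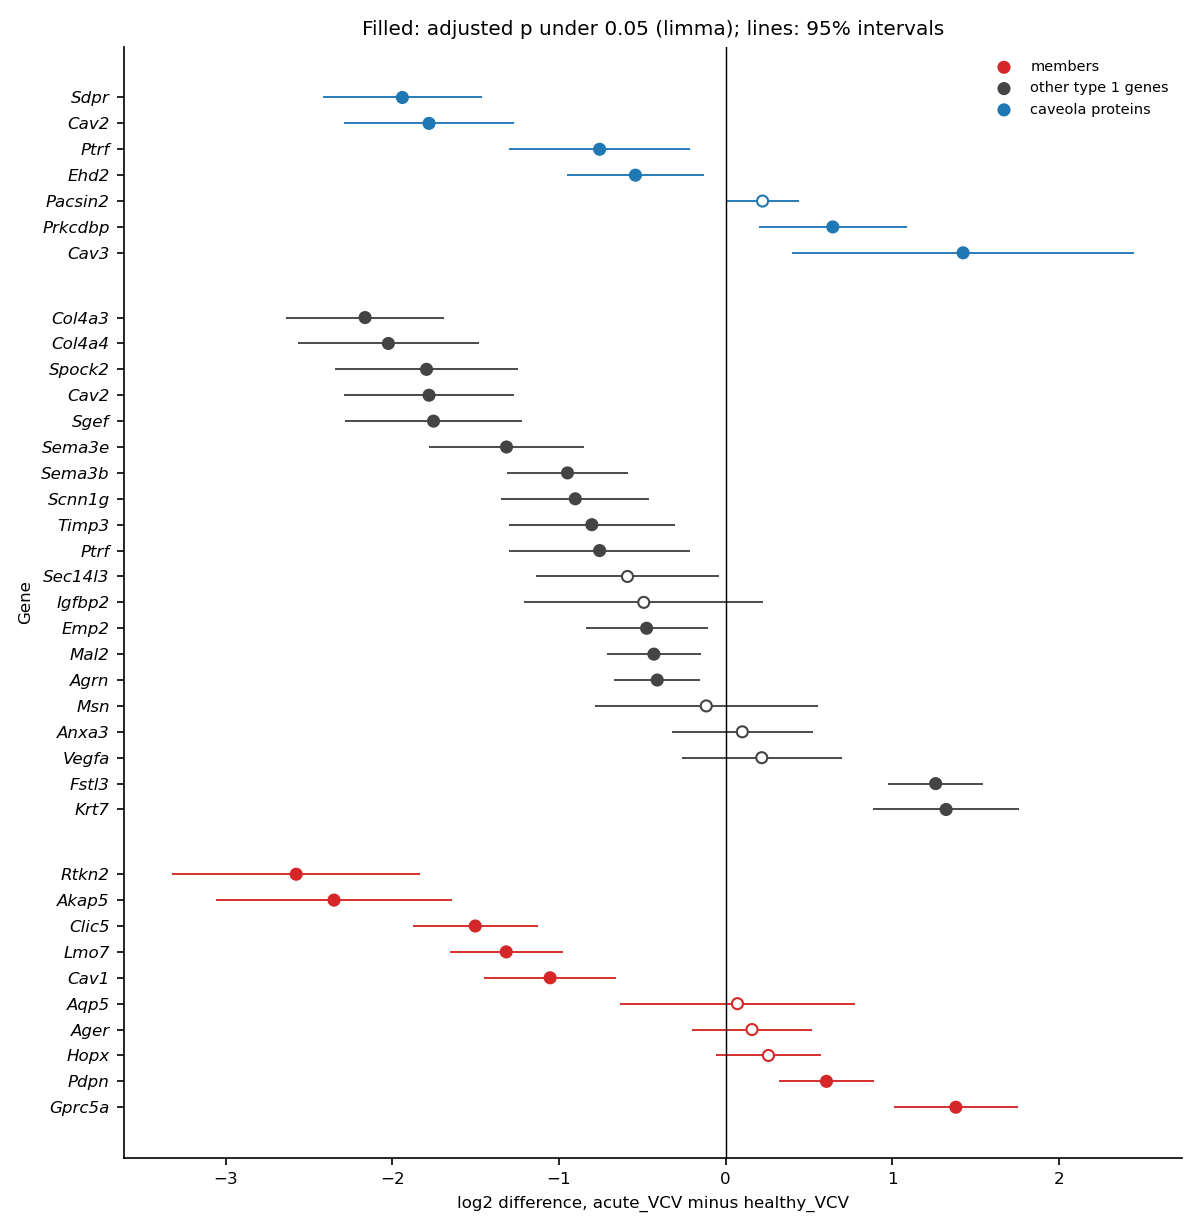
Log2 difference between acute_VCV and healthy_VCV (horizontal axis) for the 10 members, 20 other type 1 genes and 7 caveola proteins, with 95% intervals as lines and filled dots for adjusted p under 0.05 by limma; Cav2 and Ptrf stand in both latter lists. Rtkn2 and Akap5 lie furthest to the left among the members and Gprc5a furthest to the right.

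Regulators of the type 1 state were read from a list of 23 genes, of which 20 were found and tested. In acute_VCV against healthy_VCV 8 fell and 1 rose: the largest falls were in Foxp2 (-3.08), a forkhead factor of lung epithelium, Notch2 (-1.57) and Tead1 (-1.22), the DNA-binding partner of YAP, and Tgfb2 rose (1.08). Of all genes 26.4% fell and 26.1% rose there. Against control_blank, within series 12, 5 rose and 5 fell, where 20.6% and 16.7% of all genes did so. In healthy_VCV against control_blank 9 of 20 rose and 3 fell, where 29.3% and 28.1% of all genes did so and 57.4% passed in either direction, so the total is near that of all genes. The largest rises were in Fgf10 (2.98), Notch2 (2.80) and Foxp2 (2.32) and the largest falls were in Wnt7a (-1.12), Nkx2-1 (-0.98) and Foxa2 (-0.58). Foxp2 was a low gene, with values of 107 to 173 in healthy_VCV, 8.93 to 20.3 in acute_VCV and 19.4 to 36.8 in control_blank.

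Under constant ventilation of uninjured lungs the members moved in both directions. All control_blank libraries are of series 12 and no healthy_VCV library is, so ventilation and series cannot be told apart here. Against control_blank, 3 rose and 4 fell in healthy_VCV, and 57.4% of all genes tested passed (29.3% higher, 28.1% lower). Beside the falls of Aqp5, Pdpn, Gprc5a and Ager, Akap5 rose 2.39-fold (log2 difference 1.26 ± 0.34 SE, adjusted p = 0.00342), Rtkn2 2.31-fold (log2 difference 1.21 ± 0.36 SE, adjusted p = 0.0064) and Lmo7 1.67-fold (log2 difference 0.74 ± 0.16 SE, adjusted p = 0.000562). The mean log2 value over the 10 genes was 13.27 in healthy_VCV and 13.26 in control_blank, although 7 of the 10 passed the threshold. Without control_blank_016 the count was 4, and Akap5 (0.83, adjusted p = 0.0567) and Rtkn2 (0.74, adjusted p = 0.0987) no longer passed, while Lmo7 did. That library was also lowest in the endothelial markers, with a mean log2 of 10.75 against 11.76 and 11.74 in the other control_blank libraries, and the part of this in the result was not tested. The other type 1 genes split likewise, with 7 of 20 higher, led by Col4a3 (2.03), Col4a4 (1.83) and Timp3 (1.58), and 5 lower, led by Igfbp2 (-1.56), Vegfa (-1.20) and Sec14l3 (-1.14).

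Variable ventilation of uninjured lungs lowered 3 of the 10 (Aqp5, Pdpn and Gprc5a) and raised 0, where 14.6% and 17.5% of all genes tested did so (32.1% in all, with 2036 higher and 2795 lower by edgeR). Neutrophil markers rose 11 of 11 in both uninjured ventilated groups, with summed levels of 2994 to 3579 in control_blank, 22181 to 36983 in healthy_VCV and 27502 to 38033 in healthy_noisy. Of 5 lymphatic endothelial markers, a cell type that also makes Pdpn, 4 rose and 1 fell in healthy_VCV and 2 rose and 1 fell in healthy_noisy. The part of these cells in the falls was not tested. Acute injury with variable ventilation, against control_blank, lowered 5 of the 10 and raised 0 (28.4% and 31.3% of all genes, 59.8% in all). Beside Aqp5, Ager and Pdpn these were Clic5 (log2 difference -0.68 ± 0.18 SE, adjusted p = 0.00285) and Cav1 (log2 difference -0.73 ± 0.19 SE, adjusted p = 0.00225), both of which missed the threshold in a fit of these 2 groups alone (adjusted p = 0.0632 and 0.0777). No number series held control_blank together with healthy_noisy or acute_noisy.

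**Figure D3:**
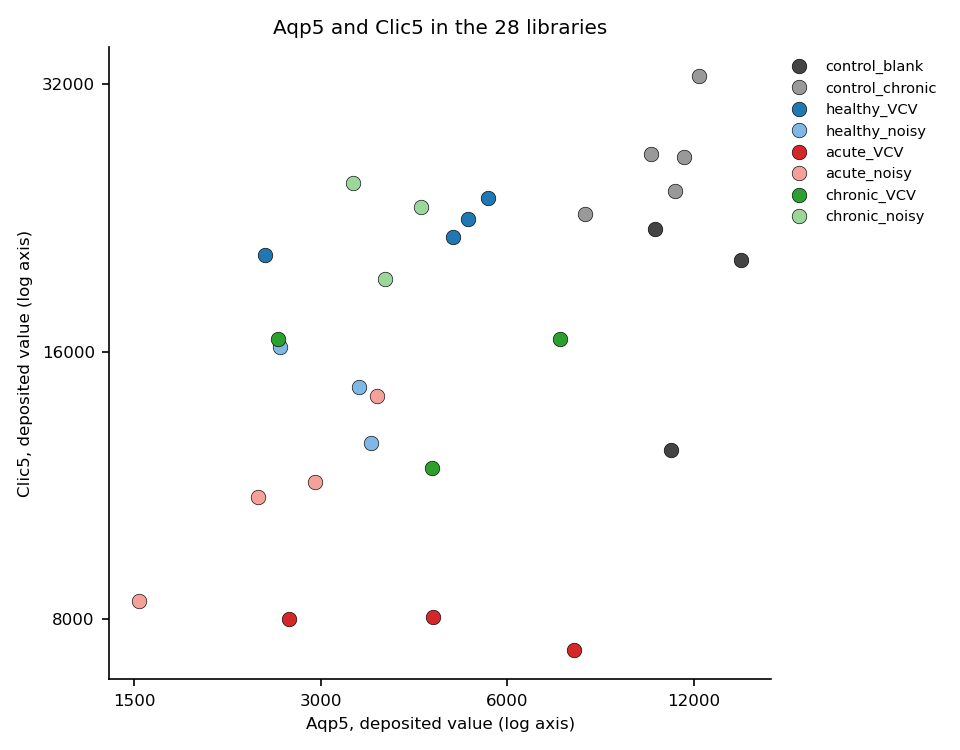
Aqp5 (horizontal) against Clic5 (vertical), deposited values on log axes, with a dot for each of the 28 libraries coloured by group. The 8 unventilated libraries lie to the right of all 20 ventilated ones, and the 3 acute_VCV libraries lie at the bottom, with Aqp5 from 2666 to 7698.

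Chronic injury without ventilation gave 4 calls, all of which were lost without a single control_blank library. In these lungs, control_chronic stood above control_blank in 4 of the 10 and below in 0 (9.3% and 5.55% of all genes, 14.9% in all, with 710 higher and 1139 lower by edgeR): Akap5 (log2 difference 1.06 ± 0.33 SE, adjusted p = 0.0335), Rtkn2 (log2 difference 1.02 ± 0.34 SE, adjusted p = 0.0474), Clic5 (log2 difference 0.58 ± 0.17 SE, adjusted p = 0.0299) and Lmo7 (log2 difference 0.49 ± 0.16 SE, adjusted p = 0.0377). None of the 4 passed without control_blank_016, where their log2 differences were 0.64, 0.55, 0.32 and 0.33, or in edgeR (adjusted p from 0.0585 to 0.0987). Clic5 alone was left without control_chronic_113, control_chronic_115 or control_blank_021, Clic5 and Akap5 were left without control_chronic_114, and 0 were left without control_chronic_117. On top of chronic injury, constant ventilation lowered 3 of the 10 (Aqp5, Pdpn and Clic5) and raised 0 (7.9% and 6.89% of all genes, 14.8% in all). Variable ventilation lowered 4 (Aqp5, Ager, Pdpn and Gprc5a) and raised 0 (18.1% and 19.1%, 37.2% in all). No number series held both groups in any comparison of this paragraph.

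Among ventilated lungs, chronic injury raised Gprc5a under constant ventilation (log2 difference 0.80 ± 0.18 SE, adjusted p = 0.0282), the 1 of 10 that passed where 2.46% of all genes did (1.64% higher, 0.818% lower). This call was lost without chronic_VCV_067, chronic_VCV_073, healthy_VCV_025, healthy_VCV_057 or healthy_VCV_060, while its log2 difference was 0.76 with the number series as a covariate (adjusted p = 0.157). Within series 15 it was 0.68, with 1 healthy_VCV library assumed to vary like the others (adjusted p = 0.828). Under variable ventilation limma called 0 of 10 for chronic injury, where 4.69% of all genes passed (2.27% higher, 2.42% lower, and by edgeR 447 genes higher and 276 lower), with 5 at an unadjusted p under 0.05 and 1 called by edgeR, Clic5 (edgeR adjusted p = 0.0474). Every chronic_noisy library lay above every healthy_noisy library in 6 of 10 members and in 20.1% of all genes. These 2 groups are of series 14 and series 15, so injury and series cannot be told apart there. Acute injury under variable ventilation raised Gprc5a (log2 difference 0.50 ± 0.18 SE, adjusted p = 0.0434) and lowered Cav1 (log2 difference -0.56 ± 0.19 SE, adjusted p = 0.033) and Lmo7 (log2 difference -0.46 ± 0.16 SE, adjusted p = 0.0402), 3 of 10 where 26.7% of all genes passed (12.9% higher, 13.9% lower, while by edgeR 63.6% of the called genes were higher). By edgeR 2 members rose and 0 fell: Gprc5a (adjusted p = 0.0215) and Pdpn (0.0316) passed, and Cav1 (0.0734) and Lmo7 (0.0781) did not. All 3 were lost without acute_noisy_047, acute_noisy_050, healthy_noisy_029 or healthy_noisy_061, Lmo7 and Gprc5a without healthy_noisy_078, and Gprc5a without acute_noisy_046. The count ran from 0 to 6 with a single library left out, no member of the 3 passed within series 15, where the log2 differences were 0.48, -0.19 and -0.21, and the Cav1 difference fell to -0.35 without acute_noisy_050. In acute_noisy, Lmo7, Cav1, Rtkn2 and Hopx were each higher in both series 15 libraries than in both series 14 libraries, by 0.51, 0.75, 0.70 and 0.60 log2 units, as were Aqp5, Ager and Clic5, while Pdpn was lower and Akap5 and Gprc5a overlapped. The share of all genes that separate in this way was not counted, so this does not set the members apart.

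**Figure D4:**
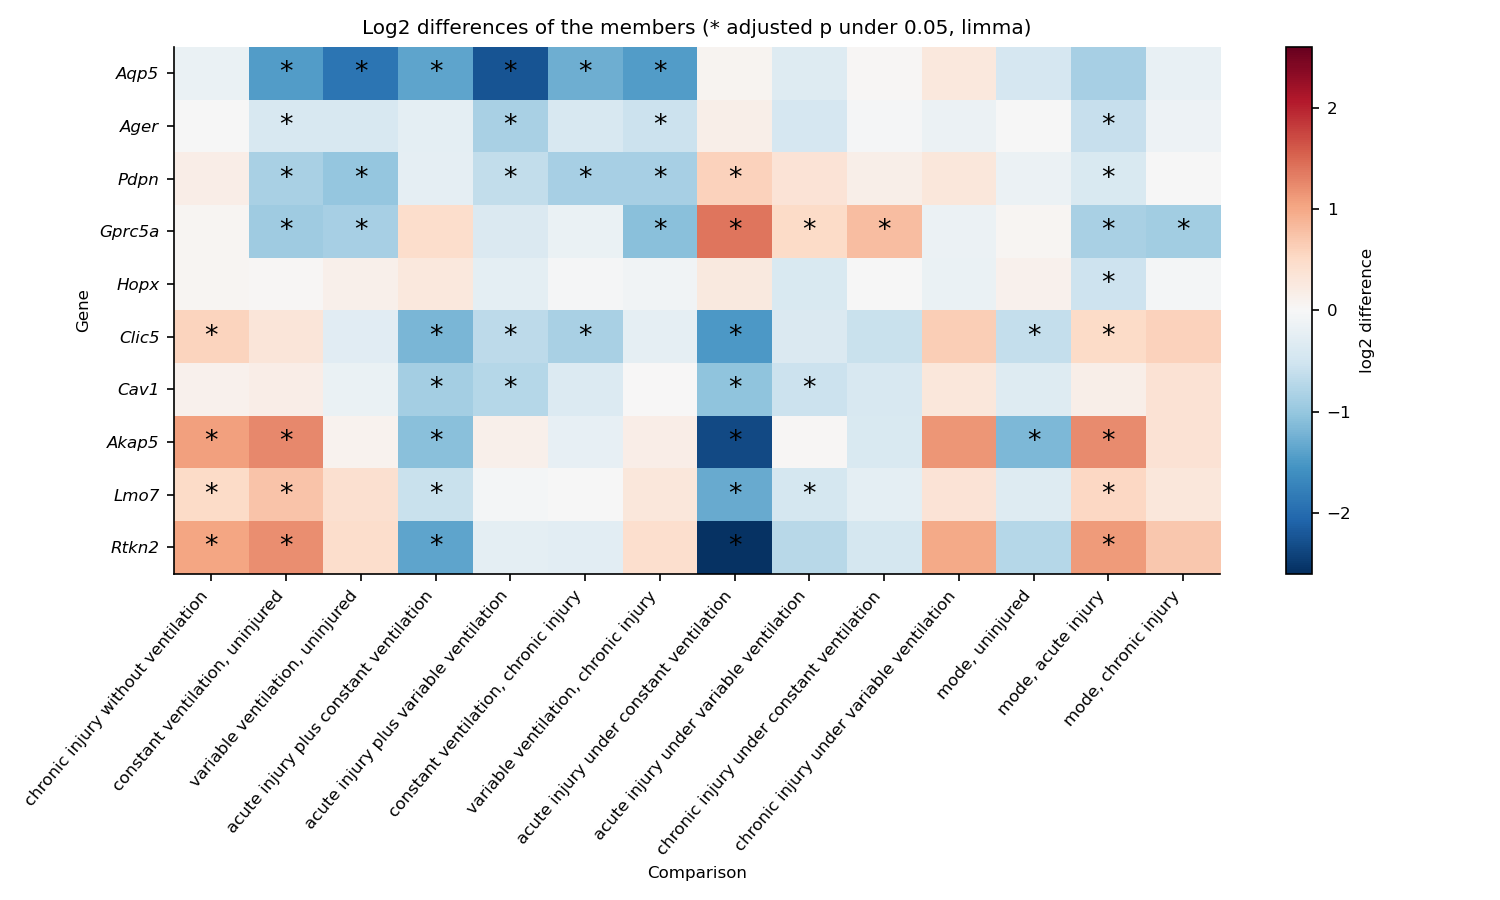
Log2 differences of the 10 genes (rows) in the 14 comparisons of 2 groups (columns), red for higher and blue for lower in the first-named condition, with a star for adjusted p under 0.05 by limma. Aqp5 is blue with a star in the 6 comparisons of a ventilated with an unventilated group, and the strongest blue of Akap5 and Rtkn2 is in acute injury under constant ventilation.

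Clic5 and Akap5 were lower under variable ventilation in uninjured lungs and higher in acutely injured ones, each past the threshold. In uninjured lungs variable ventilation lowered Clic5 (log2 difference -0.62 ± 0.18 SE, adjusted p = 0.0399) and Akap5 (log2 difference -1.16 ± 0.34 SE, adjusted p = 0.041), 2 of 10 with 0 higher, where 10.3% of all genes passed (6.01% lower, 4.31% higher). Lmo7 (-0.33 ± 0.16), Rtkn2 (-0.74 ± 0.36) and Cav1 (-0.34 ± 0.19) did not pass although their groups did not overlap, healthy_noisy being below in 5 of 10 genes and in 20.2% of all genes. Both calls were lost without any of healthy_VCV_025, healthy_VCV_057, healthy_VCV_060, healthy_VCV_062, healthy_noisy_029 and healthy_noisy_061, with adjusted p of 0.0705 to 0.203 for Clic5. Within series 15, with 1 healthy_VCV library assumed to vary like the others, the log2 differences were -0.73 for Clic5 and -1.50 for Akap5, and the adjusted p was 0.638 for both.

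In acutely injured lungs variable ventilation raised 4 of the 10 and lowered 4, where 11.9% and 12.3% of all genes did so (24.2% in all). Akap5 (log2 difference 1.22 ± 0.34 SE, adjusted p = 0.0146), Rtkn2 (log2 difference 1.11 ± 0.36 SE, adjusted p = 0.0285), Lmo7 (log2 difference 0.53 ± 0.16 SE, adjusted p = 0.0231) and Clic5 (log2 difference 0.50 ± 0.18 SE, adjusted p = 0.0463) were higher in acute_noisy than in acute_VCV. Gprc5a (log2 difference -0.84 ± 0.18 SE, adjusted p = 0.00374), Ager (log2 difference -0.59 ± 0.17 SE, adjusted p = 0.0177), Hopx (log2 difference -0.53 ± 0.15 SE, adjusted p = 0.0153) and Pdpn (log2 difference -0.40 ± 0.14 SE, adjusted p = 0.0373) were lower. Leaving out acute_VCV_040 left Gprc5a as the 1 call, and a fit of these 2 groups alone left 0, the adjusted p of Gprc5a being 0.0555. Each of acute_VCV_045, acute_VCV_049, acute_noisy_046, acute_noisy_047, acute_noisy_050 and acute_noisy_053 also cost at least 1 call when left out, so the count ran from 1 to 7. All acute_VCV libraries are of series 12 and no acute_noisy library is, so mode and series cannot be told apart here. In chronically injured lungs Gprc5a was lower under variable ventilation (log2 difference -0.91 ± 0.19 SE, adjusted p = 0.0187), the 1 of 10 that passed where 2.43% of all genes did (1.86% lower, 0.563% higher), and this was lost without chronic_VCV_067, chronic_VCV_073, chronic_noisy_079 or chronic_noisy_084. Clic5 was 0.59 ± 0.19 there and did not pass (adjusted p = 0.0866).

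**Figure D5:**
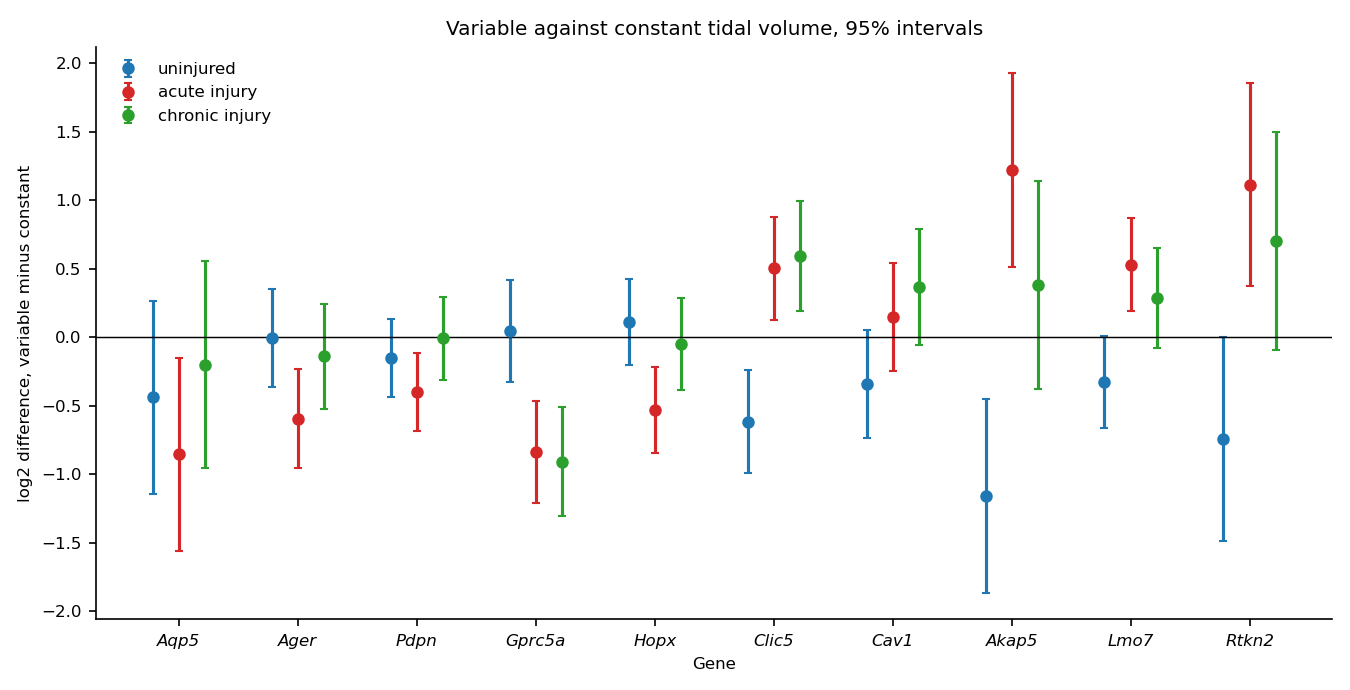
Log2 difference of variable minus constant tidal volume (vertical axis) for each gene in uninjured, acutely injured and chronically injured lungs, with 95% intervals. Clic5, Akap5, Lmo7 and Rtkn2 lie below 0 in uninjured lungs and above 0 in acutely injured ones, while Gprc5a lies below 0 in both injured states.

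The difference between these mode effects was tested itself. Acute minus uninjured, it was higher for 4 of the 10 and lower for 2, where 19.6% and 19.4% of all genes passed (39% in all). It was 2.38 ± 0.49 log2 units for Akap5 (adjusted p = 0.00104), 1.86 ± 0.51 for Rtkn2 (0.00661), 1.12 ± 0.26 for Clic5 (0.00207) and 0.86 ± 0.23 for Lmo7 (0.00609). It was -0.88 ± 0.26 for Gprc5a (0.00908), and these 5 calls held under every alternative run. For Hopx it was -0.64 ± 0.22 (0.0211), lost without acute_VCV_045 or acute_noisy_050 and, at -0.63 and -0.64, under quantile normalization (adjusted p = 0.0595) and in a fit of the 4 groups alone (0.0546). The number series differ among the 4 groups, and their part in these differences cannot be told apart.

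Chronic minus uninjured, the mode effect was higher for Akap5 (log2 difference 1.54 ± 0.50 SE, adjusted p = 0.0251), Rtkn2 (log2 difference 1.45 ± 0.53 SE, adjusted p = 0.041) and Clic5 (log2 difference 1.21 ± 0.27 SE, adjusted p = 0.00347) and lower for Gprc5a (log2 difference -0.95 ± 0.26 SE, adjusted p = 0.011), 4 of 10 where 29.7% of all genes passed (15.7% higher, 14% lower). With the number series as a covariate the differences were 1.73 for Clic5, 2.05 for Akap5, 2.21 for Rtkn2 and -0.87 for Gprc5a, and none passed (adjusted p from 0.0969 to 0.375). Without chronic_VCV_067 Akap5 (0.103) and Rtkn2 (0.96, adjusted p = 0.166) were lost, and both were also lost without chronic_noisy_079, chronic_noisy_084 or healthy_noisy_061. Rtkn2 was further lost without chronic_VCV_073, healthy_VCV_025, healthy_VCV_057, healthy_VCV_062, healthy_noisy_029 or healthy_noisy_078. The effect of constant ventilation itself differed between chronic and uninjured lungs for 5 of the 10, where 23.9% of all genes passed (14% lower, 9.92% higher, and by edgeR 1597 genes lower and 1820 higher). It was lower in chronic injury for Rtkn2 (log2 difference -1.48 ± 0.50 SE, adjusted p = 0.035), Akap5 (log2 difference -1.46 ± 0.48 SE, adjusted p = 0.0299), Clic5 (log2 difference -1.16 ± 0.25 SE, adjusted p = 0.00592) and Lmo7 (log2 difference -0.74 ± 0.23 SE, adjusted p = 0.0229) and higher for Gprc5a (log2 difference 0.74 ± 0.25 SE, adjusted p = 0.0348). Of these, Clic5 passed under every alternative run, though series and group could not be told apart here. The other 4 were lost without chronic_VCV_067 or without control_blank_016. Akap5, Gprc5a or Rtkn2 were lost as well without chronic_VCV_073, control_blank_021, control_chronic_114, control_chronic_115, control_chronic_117, healthy_VCV_025, healthy_VCV_057 or healthy_VCV_062. For variable ventilation the same difference passed for 0 of 10 by limma and 0 by edgeR, with 0 at an unadjusted p under 0.05, where 2.66% of all genes passed (0.966% higher, 1.69% lower, and by edgeR 213 genes higher and 185 lower), and the interval for Clic5 was -0.48 to 0.59.

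Across the 28 libraries the genes most like each member in log2 value, by Pearson r, were led by Wisp2 for Aqp5 (0.93), Clic3 for Ager (0.91), Ywhaq for Pdpn (0.89), Guk1 for Gprc5a (0.90) and Vamp8 for Hopx (0.76). Nap5 (0.97) led for Clic5, followed by Sdpr (0.96) and Cav2 (0.94). Dusp19 (0.94) led for Cav1, Nipa1 (0.95) for Akap5, Mfap3l (0.95) for Lmo7 and Tp53bp2 (0.96) for Rtkn2. Tp53bp2 and Smad9 stood among the 3 genes most like both Lmo7 and Rtkn2. These values describe 28 points that share groups and number series, and no test is given.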

How the data were processed

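The deposited table gives a signal per gene and library, which the values show to be counts of reads scaled by a single size factor in each library, with genes of Ensembl version 67 per the file header. The submitters' processing notes list CASAVA 1.8.0, BWA, bedtools 2.11, DESeq 1.8.3 and build rn4 without role or order. Per the labels, oligo(dT) beads selected the RNA and strand-specific dUTP libraries were sequenced as a pool, and whether counting used strand is not given in the sources used here. Dividing each library by its smallest step gave whole reads for 100% of values within 0.1 read. No pair of replicates was a duplicate: between any pair, chi-square per gene was at least 15.3. Each value column was used. Groups came from the sample titles, and 489 genes of the table carry no gene name.

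Values were taken as log2(deposited value + 1), so differences of low genes are understated, and genes with a mean of at least 10 were fitted with limma 3.58.1 in R 4.3.3 (a mean for each of 8 groups, trend, robust prior). In all, 14 contrasts of 2 groups and 4 differences between contrasts were tested, two-sided, with Benjamini-Hochberg adjustment over all 14908 genes and a threshold of 0.05. Alternatives were a pseudocount of 10, no filter, quantile normalization, fits of the groups compared, the number series as a covariate and each library left out. Added after seeing the data were the quasi-likelihood test of edgeR 4.0.16 on the recovered reads, fits without the 2 shallowest control_chronic libraries and fits of series 15 alone. The procedure was tested on simulated data.

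The members and lists were chosen with earlier results of these data known, and several lists share genes. Named genes were the members, the 3 genes most like each by Pearson r, up to 3 called genes in each direction of a list described, and the small partner lists. Lists held 233 entries, of which 195 were found, 4 by a RefSeq synonym. Hmgb1 was listed among ligands of Ager and is not analysed here. Promoter letters come from RefSeq (GRCr8). Tables were handled with pandas 2.3.3 and numpy 2.4.6 in Python 3.11.15, and figures drawn with matplotlib 3.10.9.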

Additional observations from a re-analysis of the deposited data

Results flagged for a closer look

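In groups of at least 4 libraries, 30 pairs of a member and a group were checked for a library far from the rest, and chance flags about 1 in 20. Aqp5 in healthy_VCV_057 was 2441, below the other 3 libraries at 4910 to 5590. Pdpn in acute_noisy_053 was 5782, below the other 3 at 7326 to 7655.

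Members whose response differed between injury states by limma's test of the difference were as follows, in log2 units. The effect of constant ventilation, chronic minus uninjured, differed for Clic5 (-1.16), Akap5 (-1.46), Lmo7 (-0.74), Gprc5a (0.74) and Rtkn2 (-1.48). The effect of mode, acute minus uninjured, differed for Hopx (-0.64), Clic5 (1.12), Akap5 (2.38), Lmo7 (0.86), Gprc5a (-0.88) and Rtkn2 (1.86). The effect of mode, chronic minus uninjured, differed for Clic5 (1.21), Akap5 (1.54), Gprc5a (-0.95) and Rtkn2 (1.45).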

How the results depend on the processing

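Of 180 pairs of a member and a comparison, 69 were called, and 29 of these were called under every alternative run and 35 with every library left out. None of the 69 turned direction under an alternative run, and 760 of their 968 alternatives still passed. The number series could be a covariate in 6 of the 18 comparisons, and there all 11 called pairs were lost. In the other comparisons that alternative was not run. No paired analysis was possible because no library number recurs across groups. A pseudocount of 10 and no filter left every count within 1.5 times. Counts of members called that moved further are given with the reported count first. For chronic injury without ventilation (4) they were 2 under quantile normalization, 0 with the groups alone, 0 by edgeR and 1 without the 2 shallowest libraries. For acute injury with variable ventilation against control_blank (5) the groups alone gave 3. Acute injury under variable ventilation (3) gave 0 with the series covariate, the groups alone or series 15 alone. Chronic injury under constant ventilation (1) gave 0 with the covariate or series 15 alone. Chronic injury under variable ventilation (0) gave 3 with the groups alone and 1 by edgeR. Mode in uninjured lungs (2) gave 1 under quantile normalization, 0 with the covariate, 4 with the groups alone and 0 in series 15. Mode in acute injury (8) gave 5 under quantile normalization and 0 with the groups alone. Mode in chronic injury (1) gave 0 with the covariate or the groups alone. The difference of constant ventilation effects (5) gave 3 with the groups alone, 3 by edgeR and 2 without the 2 shallowest libraries. The difference of mode effects, chronic minus uninjured (4), gave 0 with the covariate. Quantile normalization brought the median log2 difference of all genes furthest from 0 for constant ventilation of uninjured lungs (to -0.13) and for the difference of mode effects, acute minus uninjured (to -0.15). The cause was not tested.

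With each library left out, counts ran 0 to 4 for chronic injury without ventilation, 4 to 7 for constant ventilation uninjured, 3 to 6 for acute_VCV against control_blank, 0 to 6 and 0 to 1 for acute and chronic injury under variable ventilation, and 0 to 1 for chronic injury under constant ventilation. They ran 0 to 2, 1 to 7 and 0 to 1 for mode in uninjured, acute and chronic lungs, 1 to 5 for the difference of constant ventilation effects and 2 to 5 for that of mode effects, chronic minus uninjured. With at least 605 reads for every member in every library, the spread between libraries limits these results more than counting.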

Other observations

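Markers of other lung cells, listed apart from the members, were counted in ventilated uninjured lungs against control_blank, where 29.3% of all genes rose and 28.1% fell in healthy_VCV and 17.5% and 14.6% in healthy_noisy. In healthy_VCV ciliated cell genes fell for 10 of 11 tested and rose for 0, and in healthy_noisy the counts were the same. Lymphocyte genes fell for 7 of 10 in healthy_VCV and 10 of 10 in healthy_noisy, with 0 higher. Macrophage genes rose for 7 and 6 of 9, with 0 lower, and fibroblast genes for 3 and 2 of 10, with 0 lower, the fibroblast shares being close to those of all genes. Secretory cell genes fell for 2 and 3 of 5. Smooth muscle and pericyte genes were higher for 2 and lower for 3 of 6 in healthy_VCV, and higher for 1 and lower for 3 in healthy_noisy. Heart muscle genes fell for 3 and 8 of 8. Mesothelial genes, a cell type that also makes Pdpn, rose for 0 of 5 in healthy_VCV and 2 of 5 in healthy_noisy, with 0 lower.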
